A study of Homo sapiens with 6 samples.

Results

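The MX, IFI and viperin effectors are 10 genes that cells switch on in response to interferon and whose proteins act against viruses inside the cell or at its surface. They are MX1, MX2, IFI6, IFI27, IFI44, IFI44L, RSAD2 (which encodes viperin), CMPK2, BST2 and XAF1. They were taken by gene symbol from a deposited table of 19899 genes, and all 10 symbols were found there. The genes were chosen by their class with the levels measured in this same comparison (BRG1 against Control) already known, so their difference between groups is given below as a description. No p-value is given for them, and counts of calls from the fit over all genes only describe them.

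RNA was sequenced from COV434, an established human ovarian cell line that the study treats as a line of the hypercalcemic small cell ovarian carcinoma SCCOHT, a cancer that lacks the BRG1 protein. BRG1 is encoded by SMARCA4 and is an ATPase that drives the SWI/SNF chromatin remodeling complex. Control cells (n = 3) received the plasmid pCDNA3-neo and BRG1 cells (n = 3) received PBJ5-BRG1, each together with pBABE-puro, which carries puromycin resistance, at a ratio of 10 to 6.25 parts to 1. Cells of both groups were moved to 2 to 3 µg/ml puromycin after 24 hours and were collected 3 days later. All 6 samples were thus transfected and treated with puromycin, but the plasmid ratio and the dose are given as ranges and not for each sample. The plasmid given with pBABE-puro differed between the groups, so its effect and that of BRG1 cannot be told apart. The labels describe the samples as parental COV434 cells and number them 1 to 3 in each group, and the series calls them biological replicates. The samples were transiently transfected cultures of a single cell line, and all 10 genes were measured as bulk RNA, in which more cells with a transcript and more transcript per cell cannot be told apart.

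Interferons are secreted proteins that bind paired receptors on the cell surface. The receptor of the type I interferons, IFNAR1 with IFNAR2, works through the kinases JAK1 and TYK2, which phosphorylate transcription factors of the STAT family, among them STAT2. STAT2 joins IRF9 in a complex that enters the nucleus and binds a DNA element called the interferon-stimulated response element (ISRE), which lies in the promoters of many of the effector genes. Interferon beta itself (IFNB1) is made when sensors of foreign nucleic acid in the cytoplasm are triggered.

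The effectors work at different steps of infection. MX1 and MX2 are dynamin-like GTPases that form rings around viral nucleocapsids. IFI6 and IFI27 are small hydrophobic proteins of inner cell membranes. IFI44 and IFI44L are related cytoplasmic proteins encoded side by side. Viperin is a radical SAM enzyme that turns CTP into a chain terminator for viral polymerases, and its neighbor CMPK2 is a mitochondrial nucleotide kinase. BST2, also called tetherin, holds budding virus particles on the cell surface, and XAF1 binds XIAP, an inhibitor of caspases, and promotes cell death.

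The promoter sequences were not themselves used to choose the genes. The genes were chosen as a class that interferon switches on, and the ISRE lies in many promoters of that class. Matches to it therefore describe the class and are no independent result. They come from RefSeq windows on GRCh38.p14 that run from 250 bases before to 50 bases after each transcription start. There were 17 such windows for 9 of the 10 genes. MX2 had no window and was not searched. Capitals mark the core of the ISRE, searched as GAAA, any pair of bases (NN) and GAAA on either strand, so that TTTC, NN and TTTC is the same core on the opposite strand. The IFI6 and IFI44 windows are printed whole up to the start, and for the other genes with a match 30 bases are printed around the match closest to the start among the bases before it, in the window with the most such matches.
IFI6, chr1:27672193-27672442, minus strand: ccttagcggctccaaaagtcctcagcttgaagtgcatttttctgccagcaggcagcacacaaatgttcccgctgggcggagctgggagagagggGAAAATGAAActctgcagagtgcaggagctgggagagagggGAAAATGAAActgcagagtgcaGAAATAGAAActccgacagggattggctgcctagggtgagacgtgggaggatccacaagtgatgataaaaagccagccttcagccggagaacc
IFI44, chr1:78649539-78649788, plus strand: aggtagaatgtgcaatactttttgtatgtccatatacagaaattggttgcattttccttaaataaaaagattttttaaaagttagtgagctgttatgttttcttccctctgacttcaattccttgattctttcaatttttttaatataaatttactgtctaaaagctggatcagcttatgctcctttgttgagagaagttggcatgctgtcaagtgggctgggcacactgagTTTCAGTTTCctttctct
IFI44L, chr1:78620365-78620394, plus strand: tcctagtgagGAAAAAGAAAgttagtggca
RSAD2, chr2:6877622-6877651, plus strand: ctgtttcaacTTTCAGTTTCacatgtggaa
IFI27, chr14:94110625-94110654, plus strand: cagTTTCGGTTTCctgGAAAATGAAAccta
BST2, chr19:17405738-17405767, minus strand: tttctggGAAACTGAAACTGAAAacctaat
MX1, chr21:41431844-41431873, plus strand: ggtcactctgTTTCTCTTTCcgtgaataaa

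The ISRE core was found in 10 of the 17 windows, whereas 3.57% of all 35116 RefSeq promoter windows held it. Windows of the same gene can overlap, and the windows of IFI44 held the same match, as those of IFI27 held the same matches. By gene, the core was found in 7 of the 9 with a window, and the share over all genes was not counted. IFI6 held 3 matches, IFI27, IFI44L and BST2 held 2 each, and the matches of BST2 overlapped each other. In IFI44 the match ended 8 bases before the start, in IFI44L 63, in IFI6 83, in IFI27 85, in BST2 114 and in RSAD2 135 bases before it. MX1 has several annotated starts. At the start used above its match ended 186 bases before the start, and at another start a match lay just downstream. No window of CMPK2 or XAF1 held the letters of the core. The gamma-activated sequence (GAS, searched as TTCNNNGAA) was found in 4 of the 17 windows, from IFI27, BST2 and MX1, against 7.66% of all windows, and in each of these 3 genes a GAS match shared bases with an ISRE core. The AP-1 motif (TGANTCA) was found in 1 of the 17 windows, from MX1, against 7.71% of all windows. A match describes the letters of the window and does not show that a factor binds there.

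The libraries held 29699741 to 63613710 estimated counts, with BRG1 sample 3 the shallowest, and mitochondrial genes took 4.13% to 6.00% of them. The level of a gene is given below as its normalised count, the deposited estimated count scaled to the same library size in every sample. SMARCA4, the transfected gene, had 1517, 1760.2 and 1597 normalised counts in Control samples 1 to 3 and 111245, 82335 and 82936 in BRG1 samples, transcripts of the plasmid included. Of 12 immune cell markers, CD3D and the plasmacytoid dendritic cell genes LILRA4 and CLEC4C were at 0 in all samples, and the listed markers summed to 1937 to 3030.0 normalised counts in Control samples and 2546 to 4035 in BRG1 samples, most of it CD68. PTPRC, the pan-leukocyte gene CD45, had 528 ± 171 normalised counts in Control samples and 542 ± 201 in BRG1 samples (SD, n = 3). Of 3 markers tested, LYZ was called higher, from 0.962 ± 1.13 to 19.8 ± 5.36 (SD, n = 3), with a log2 fold change of 4.05 that was 5.05 without Control sample 1, and its call was lost without Control sample 3 (edgeR adjusted p 0.0641). LYZ passed the low-count filter through the BRG1 samples alone, so its call and p-value only describe it. Its part in the results was not tested. COV434 was long used as a granulosa cell line, and of the defining granulosa genes FOXL2, FSHR, AMHR2 and NR5A1 were at or near 0 in every sample, while of the 3 tested CYP19A1 was called higher, from 24.3 ± 8.39 to 334 ± 114 (SD, n = 3). The others tested were detected in every sample and not called, AMH with 309 ± 92.1 in Control and 424 ± 64.05 in BRG1 samples and INHA with 43.8 ± 5.23 and 39.7 ± 3.78 (SD, n = 3). With 9.2% of all genes tested called higher, 1 called of 3 tested in each marker list is no result about these lists.

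All 10 effector genes were more abundant in every BRG1 sample than in any Control sample, by the smallest margin in MX1. Outside IFI6, the highest normalised count in a Control sample was 60.2, and outside MX1 the lowest in a BRG1 sample was 243. The fitted log2 fold changes of BRG1 over Control ran from 3.06 for MX1 to 11.57 for MX2 with a median of 8.63, or 7.71 with MX2 at the lower bound that its absent Control counts allow, while the median of all 14225 genes tested was -0.04. Every one of the 10 genes passed the low-count filter, and edgeR's quasi-likelihood test called 10 of them higher and 0 lower, where it called 9.2% of all genes tested higher and 0.977% lower. With the sample number as a block edgeR called 10 of the effectors higher, and 13.3% of all genes higher and 5.62% lower, and DESeq2 called 10 of them higher, and 11% of all genes higher and 1.84% lower. Every BRG1 sample was above every Control sample in 10 of 10 effectors and in 15.6% of all genes tested. Because these genes were chosen with this difference known, nothing further is read from the counts of calls. Of the 10 genes only IFI6 reached 10 counts in all 3 Control samples and 6 reached it in none, so that the filter was passed through the BRG1 samples.

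**Figure D1:**
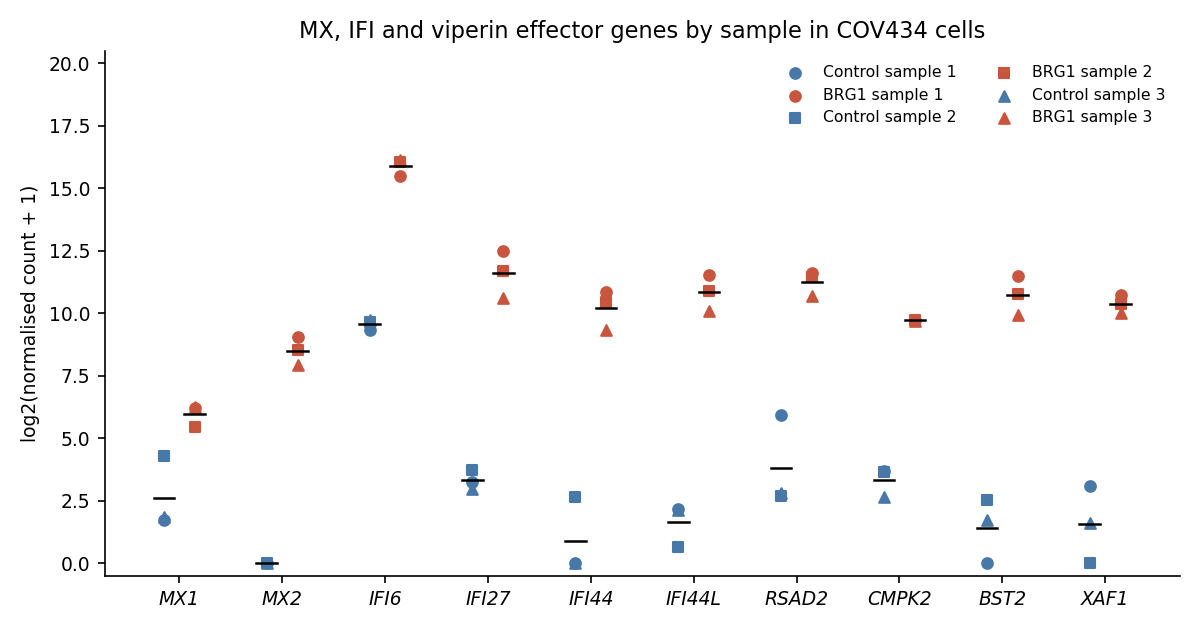
Level of each effector gene in each of the 6 samples, as log2 of the normalised count plus 1, with Control samples in blue, BRG1 samples in red, marker shapes for sample numbers 1 to 3 and a black bar at the group mean on this scale. No gene has overlapping groups, IFI6 sits far above the rest in both groups, MX2 is at 0 in all 3 Control samples, and MX1 has the smallest gap.

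The MX genes, which lie side by side on chromosome 21, had the largest and the smallest fitted log2 fold change among the effectors. MX2 (chromosome 21, 41361999 to 41409393 on GRCh38) was at 0 in all 3 Control samples and had 524, 368 and 243 normalised counts in BRG1 samples 1 to 3. Since no Control library held a count, its fold is a lower bound, taken against 3 counts in each Control library, and MX2 was at least 114.5-fold higher. Its fitted value depends on how the model treats counts of 0, so its rank against the other effectors is not established. MX1 (41420020 to 41470071) had 2.29, 18.4 and 2.58 normalised counts in Control samples and 72.1, 42.7 and 76.0 in BRG1 samples. The groups did not overlap, although Control sample 2 came nearest to the BRG1 samples and BRG1 sample 2 was the lowest of its group. The log2 fold change of MX1 was 3.06 (SE 0.75), and it was 4.62 without Control sample 2. Each standard error (SE) of a log2 fold change was derived from the edgeR quasi-likelihood test. It is the absolute log2 fold change divided by the square root of the F statistic. It therefore restates that test and is no separate measure of precision, least of all where Control counts are near 0. MX1 was the effector whose call depended on single libraries, since edgeR no longer called it without Control sample 1 or 3 or BRG1 sample 1 or 2. Within sample numbers 1, 2 and 3 the fold of MX1 was 31.5, 2.32 and 29.5. MX1 and MX2 also differed in which was lowest among BRG1 samples, and in these samples MX2 exceeded MX1 by 7.28, 8.60 and 3.19 times in normalised counts. The 3 BRG1 samples together held 1285 counts of MX2 and 195 of MX1, which makes MX1 the most thinly counted effector there. Exons of other genes, TMPRSS2 among them, cover 5.55% of the exonic bases of MX1, and the libraries do not keep strand.

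IFI6 was the most abundant effector by a wide margin, in the absence as in the presence of BRG1. IFI6 (chromosome 1, 27666064 to 27672212) had 648, 811 and 842 normalised counts in Control samples and 45801, 67835 and 71448 in BRG1 samples. Each BRG1 sample held many times the level of any Control sample, and the order within the BRG1 group was the reverse of that of most effectors, with sample 1 the lowest. Its log2 fold change of 6.33 had the smallest standard error of the 10 genes, 0.23, and the fold within sample numbers was 70.7, 83.6 and 84.8. From the summed counts the ratio was 75.7, with an exact 95% interval of 72.6 to 79.0 that covers counting error only. Exons of another gene, LINC02574, cover 23.1% of its exonic bases, and the libraries do not keep strand.

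IFI27 (chromosome 14, 94104836 to 94116695) had 8.50, 12.4 and 6.89 normalised counts in Control samples and 5733, 3336 and 1571 in BRG1 samples. It was near the counting floor without BRG1, and among the effectors it varied most between BRG1 samples, where the highest was 3.65 times the lowest. Its log2 fold change was 8.58 (SE 0.62). IFI6 exceeded IFI27 by 7.99, 20.3 and 45.5 times in BRG1 samples 1, 2 and 3, so that the balance between these related genes was far from constant across cultures of the same group.

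IFI44 and IFI44L differed less from each other. IFI44 (chromosome 1, 78649796 to 78664078) was at 0 in Control samples 1 and 3, had 5.18 normalised counts in Control sample 2, and had 1857, 1386 and 635 in BRG1 samples. IFI44L (78619902 to 78646145), directly before it on the same strand, had 3.43, 0.571 and 3.33 in Control and 2992, 1899.8 and 1089 in BRG1 samples. In the BRG1 group the pair fell in the same order of samples, and IFI44L exceeded IFI44 by 1.61, 1.37 and 1.71 times in normalised counts. The log2 fold changes were 9.71 with a standard error of 0.82 for IFI44 and 9.61 with 0.65 for IFI44L. The summed Control counts were 4 for IFI44 and 7 for IFI44L, so their folds rest on very few Control reads. For IFI44 the ratio of summed counts had an exact 95% interval of 401 to 3774, and the fitted value was 13.39 without Control sample 2.

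RSAD2 and CMPK2 lie head to head on chromosome 2, with annotated exons that overlap on opposite strands. RSAD2 (6865557 to 6898239, plus strand) had 60.2, 5.42 and 5.96 normalised counts in Control samples and 3090.4, 2783 and 1654 in BRG1 samples. Control sample 1 stood apart from the other two and held the highest level of any effector but IFI6 in a Control sample. The log2 fold change of RSAD2 was 6.82 (SE 0.81) with it and 8.74 without it. CMPK2 (6840570 to 6866635, minus strand) had 11.9, 11.4 and 5.23 in Control and 857, 839.9 and 833 in BRG1 samples. CMPK2 was the steadiest effector across BRG1 samples, with a coefficient of variation of 1.48%, against 30.1% for RSAD2, and its log2 fold change was 6.53 (SE 0.31). In normalised counts RSAD2 exceeded CMPK2 by 3.60, 3.31 and 1.99 times in BRG1 samples 1 to 3. Exons of the partner cover 6.20% of the exonic bases of RSAD2 and 7.995% of those of CMPK2, and reads in that stretch could not be assigned by strand.

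BST2 (chromosome 19, 17402939 to 17405630) was at 0 in Control sample 1, had 4.77 and 2.28 normalised counts in Control samples 2 and 3, and had 2849, 1747 and 965 in BRG1 samples. XAF1 (chromosome 17, 6755447 to 6775647) had 7.39, 0 and 2.03 in Control and 1694, 1335 and 1033 in BRG1 samples. In BST2 and XAF1 alike BRG1 sample 1 was the highest and sample 3 the lowest, and no Control sample came near them. The log2 fold change was 9.50 (SE 0.69) for BST2 and 8.68 (SE 0.57) for XAF1. Their summed Control counts were 7 and 8, and the fitted value was 10.21 for BST2 without Control sample 2 and 9.77 for XAF1 without Control sample 1. Exons of the noncoding gene PRAL cover 38.3% of the exonic bases of XAF1, the largest share among the 10 genes. This is a share of bases and not an error of the level, and how far reads of PRAL entered the value of XAF1 was not tested.

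**Figure D2:**
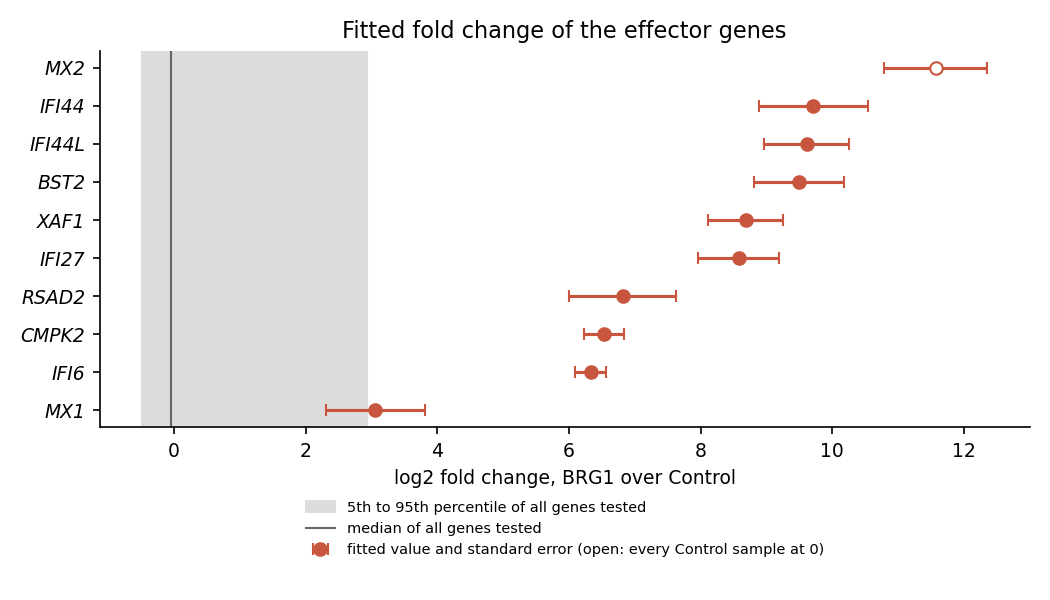
Fitted log2 fold change of BRG1 over Control for each effector, with a horizontal bar for the standard error derived from the edgeR test statistic. The gray band spans the 5th to 95th percentile of all 14225 genes tested and the line marks their median. MX1 at 3.06 lies at the edge of the band and the other 9 genes lie well outside it, MX2 being drawn open because its Control samples were all at 0.

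Levels of different genes were compared per kilobase of exon. In BRG1 samples the level of IFI6 was 65913 ± 14832 normalised counts per kb (SD, n = 3), followed by BST2 with 1684 ± 860 and IFI27 with 856 ± 504. IFI44 had 634 ± 302, RSAD2 443 ± 134, XAF1 205 ± 50.1, CMPK2 192 ± 2.84 and IFI44L 172 ± 82.2. MX2 with 25.97 ± 9.69 and MX1 with 3.54 ± 1.01 came last. The ranges over BRG1 samples overlapped between BST2 and IFI27, IFI27 and IFI44, IFI44 and RSAD2, XAF1 and CMPK2, and CMPK2 and IFI44L. Within each of the 3 BRG1 samples, however, BST2 was above IFI27, IFI27 above IFI44 and IFI44 above RSAD2, whereas XAF1 was above CMPK2, and CMPK2 above IFI44L, in 2 of the 3 samples each. The ranges did not overlap between IFI6 and BST2, RSAD2 and XAF1, IFI44L and MX2, or MX2 and MX1. With the longest annotated transcript as the length, RSAD2 and XAF1 overlapped as well and IFI44L passed CMPK2. Without BRG1 the level of IFI6 was 819 ± 112 normalised counts per kb (SD, n = 3) and that of RSAD2 was 4.22 ± 5.56, the next by its mean, which rests on Control sample 1. In Control samples 2 and 3 IFI27 was above RSAD2.

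**Figure D3:**
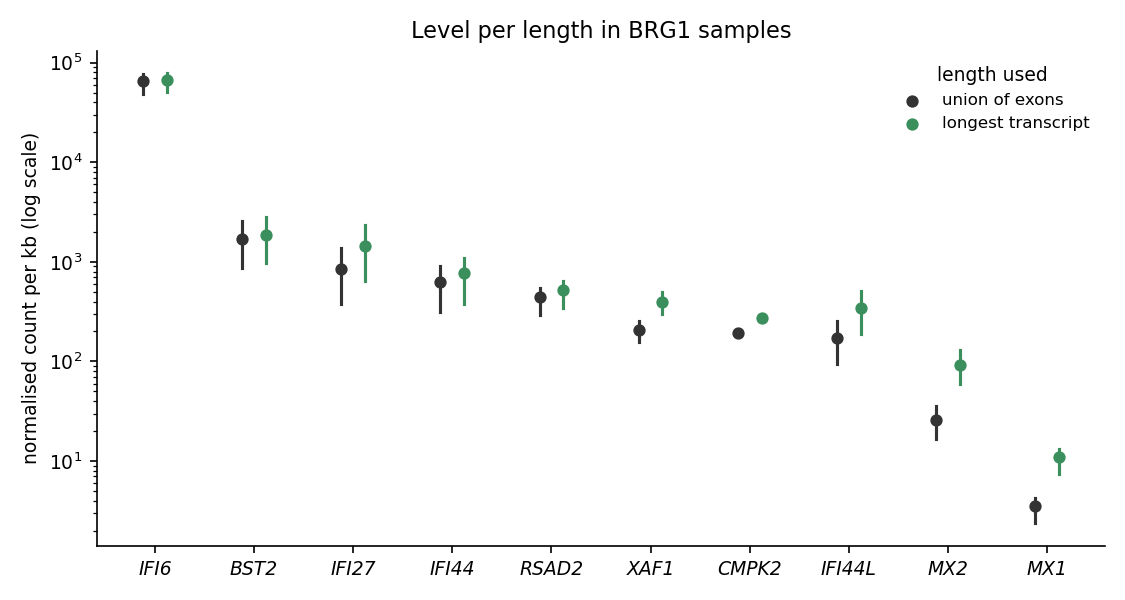
Level of each effector in BRG1 samples as normalised counts per kb on a log axis, with points for the mean and bars from the lowest to the highest of 3 samples, using the union of exons (black) or the longest transcript (green) as the length. IFI6 stands apart at the top, and MX2 and MX1 are the lowest with either length.

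Most effectors ranked the BRG1 samples in the same order. Of the 10 genes, 8 were highest in BRG1 sample 1 and 8 were lowest in BRG1 sample 3. BST2 was at 154% of its group mean in sample 1 and 52.0% in sample 3, and IFI27 at 162% and 44.3%. IFI6 and MX1 were highest in sample 3, with 116% and 120% of their means, and CMPK2 stayed between 98.8% and 102%. BRG1 sample 3 was also the lowest for 80.9% of the genes called higher and for 39.3% of all genes tested, so that many genes beyond the effectors were lowest there. It was the shallowest library. SMARCA4 was highest in BRG1 sample 1 and about equal in BRG1 samples 2 and 3. The part that depth, the level of SMARCA4 or any other difference between cultures had in the order was not tested. The median ratio of the highest to the lowest BRG1 sample was 2.01 over the effectors and 2.04 over all genes called higher.

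**Figure D4:**
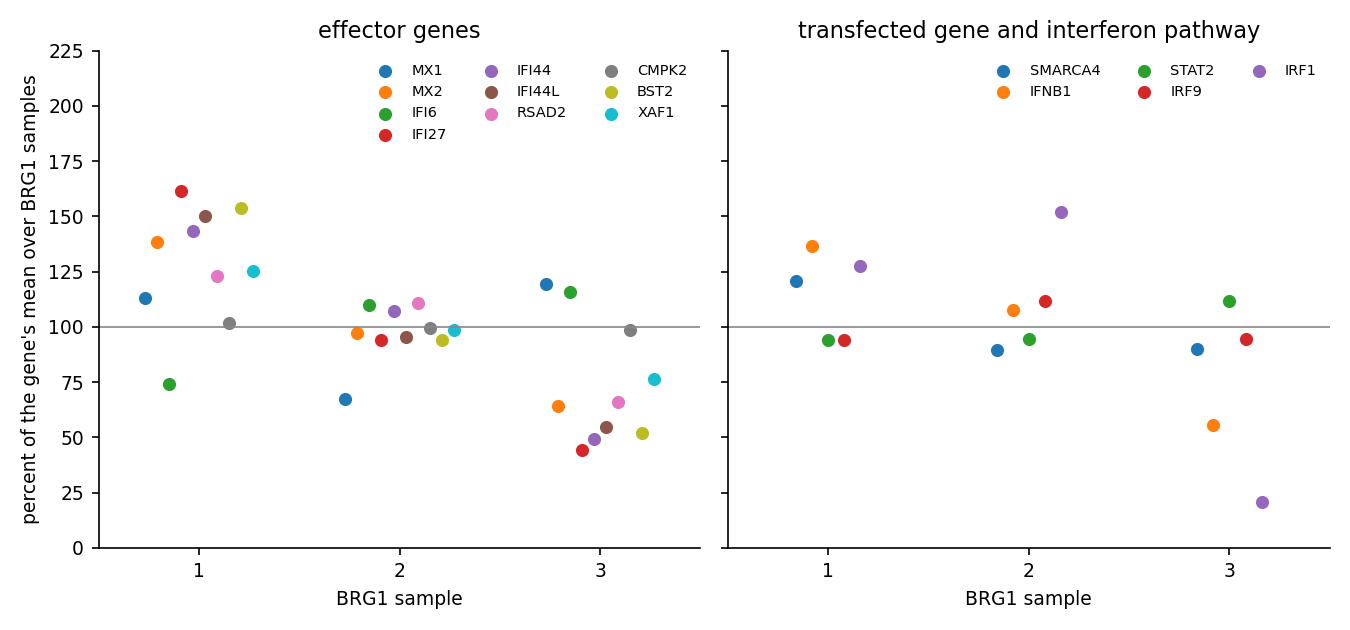
Level of each gene in BRG1 samples 1 to 3 as a percentage of its own mean over them, for the 10 effectors (left) and for SMARCA4 and 4 interferon pathway genes (right). Most effectors are highest in sample 1 and lowest in sample 3, while IFI6 and MX1 are highest in sample 3 and CMPK2 is flat; on the right IFNB1 and IRF1 are lowest in sample 3, and STAT2 and IRF9 vary little.

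By the correlation of their log2 normalised counts over the 6 samples, the genes whose pattern was most like the mean pattern of the effectors were IGFL1, GBP3, CRNN, SMARCA4 and ESM1, with Pearson r from 0.9987 to 0.9990. IGFL1 had 28.2, 23.5 and 17.3 normalised counts in Control samples and 12366, 10816 and 7490.1 in BRG1 samples. GBP3, a guanylate-binding protein gene that interferon induces, had 11.5, 12.9 and 7.79 in Control and 1361, 1264 and 736 in BRG1 samples. The 6 samples form 2 separate groups and share libraries with the effectors, so r mostly describes the gap between groups, and 822 genes had an r above 0.95.

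The genes that make, receive and pass on the interferon signal were examined next. Of 21 interferon ligand genes, 13 were at 0 in all samples and 1 passed the low-count filter. This was IFNB1, with 0, 1.23 and 0 normalised counts in Control samples and 80.9, 63.9 and 33.0 in BRG1 samples. Its log2 fold change was 6.97 (SE 0.84) with an edgeR adjusted p of 0.00142. IFNB1 passed the filter through the BRG1 samples alone and was listed with earlier results known, so this p-value only describes it. The Control samples held 1 count of IFNB1 in all, so the fitted value depends on how the model treats counts of 0, and it was 8.96 without Control sample 2 and 6.30 without Control sample 3. Its order across BRG1 samples was that of most effectors, but 80.9% of all genes called higher were also lowest in BRG1 sample 3. The interferon lambda genes were near the floor in both groups. IFNL1 had 7.42, 6.05 and 3.14 normalised counts in BRG1 samples and 0 in all Control samples. IFNL2 did not exceed 3.15 and IFNL3 did not exceed 5.83 normalised counts in any sample. Of the interferon alpha genes, IFNA1 and IFNA10 had a count in a single sample each.

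Most receptor and kinase transcripts were present without BRG1, and IFNLR1, a chain of the interferon lambda receptor, was at 0 in all Control samples and was not tested. Of 9 genes for receptor chains and JAK kinases, 8 were tested and edgeR called 0 of them higher and 0 lower, with 1 that was higher at an unadjusted p under 0.05 and 0 that were lower, and DESeq2 and limma-voom called 0 in either direction. In the other pathway lists, too, DESeq2 and limma-voom called 0 genes lower, and edgeR had 0 lower at an unadjusted p under 0.05. As edgeR called 9.2% of all genes tested higher, 0 of 8 receptors and kinases is near that share. The median log2 fold change of receptors and kinases was 0.06. JAK1, named here after its values were seen, had 4558 ± 373 normalised counts in Control samples and 6422 ± 1402 in BRG1 samples (SD, n = 3), and its log2 fold change was 0.50 with an edgeR adjusted p of 0.130. With the sample number as a block, edgeR called JAK1 (adjusted p 0.0286) and IFNGR1 (adjusted p 0.0296) higher, and without BRG1 sample 3 it called JAK1 (adjusted p 0.0119).

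STAT2 and IRF9, which act together at the ISRE, both rose. Of 9 interferon transcription factors, 7 were tested, and 2 (28.6%) were called higher, against 9.2% of all genes tested, and 0 lower. Those called were STAT2 and IRF9. Results of these data were known in part when this list was chosen, so the count only describes its genes. IRF9 rose from 1624 ± 30.5 to 7068 ± 717 normalised counts (SD, n = 3), and its log2 fold change was 2.12 (SE 0.11) with an edgeR adjusted p of 5.80e-05. STAT2 rose from 3713 ± 616 to 9276 ± 934 normalised counts (SD, n = 3), and its log2 fold change was 1.32 (SE 0.15) with an edgeR adjusted p of 0.000981. Both were well expressed in Control samples, unlike the effectors, of which IFI6 alone was. IRF7, the factor that amplifies interferon production, was near the floor in all samples, with 1.14 to 8.38 normalised counts, and was not tested. With the sample number as a block 5 factors were called higher, the added ones being IRF1, IRF2 and STAT3. IRF1 was low in sample 3 of both groups, with 6744, 6051 and 592 normalised counts in Control samples and 14584, 17386 and 2357 in BRG1 samples, so that the groups overlapped although the fold within numbers was 2.16, 2.87 and 3.98. Its edgeR adjusted p was 0.494 without and 0.00121 with the block.

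Most tested sensors of foreign nucleic acid were called higher. Of 13 sensor and adaptor genes 8 were tested. Of these, 6 (75.0%) were called higher, against 9.2% of all genes tested, and 0 lower, with a median log2 fold change of 3.45 over the 8. The list was chosen with results of these data known in part, so the count only describes its genes. DDX58, which encodes the RNA sensor RIG-I, rose from 530.1 ± 99.6 to 8322 ± 1308 normalised counts (SD, n = 3), with an edgeR adjusted p of 4.09e-05. IFIH1, which encodes MDA5, and DHX58, which encodes LGP2, had log2 fold changes of 2.21 and 2.93 (edgeR adjusted p 0.000243 and 9.35e-05). IFI16 and TLR3 had log2 fold changes of 4.92 and 4.63 (edgeR adjusted p 0.000418 and 0.000587). ZBP1 was at 0 in all Control samples and had 20.1, 26.9 and 17.1 normalised counts in BRG1 samples. That is at least 6.47-fold higher against 3 counts per Control library (edgeR adjusted p 0.00496). ZBP1 and TLR3 passed the filter through the BRG1 samples alone, so their p-values only describe them. The tested genes that were not called were MAVS and TBK1, the adaptor and kinase downstream of the RNA sensors, with log2 fold changes of 0.13 and 0.05.

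Of 6 feedback inhibitors, all tested, 2 (33.3%) were called higher, against 9.2% of all genes tested, and 0 lower. As with the sensors, the count only describes genes that were listed with results of these data known in part. USP18, which blocks the receptor IFNAR2 and removes ISG15 from proteins, rose from 521 ± 83.8 to 5827 ± 893 normalised counts (SD, n = 3), and its log2 fold change was 3.49 with an edgeR adjusted p of 4.82e-05. SOCS1, an inhibitor of JAK kinases, had a log2 fold change of 1.90 with an edgeR adjusted p of 0.0205. That call was lost without any 1 of the Control samples or without BRG1 sample 1 or 2, where the adjusted p ran from 0.0579 to 0.0947. PTPN2, PTPN6, PIAS1 and SOCS3 were not called, and with the sample number as a block SOCS3 was called as well (edgeR adjusted p 0.00526).

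**Figure D5:**
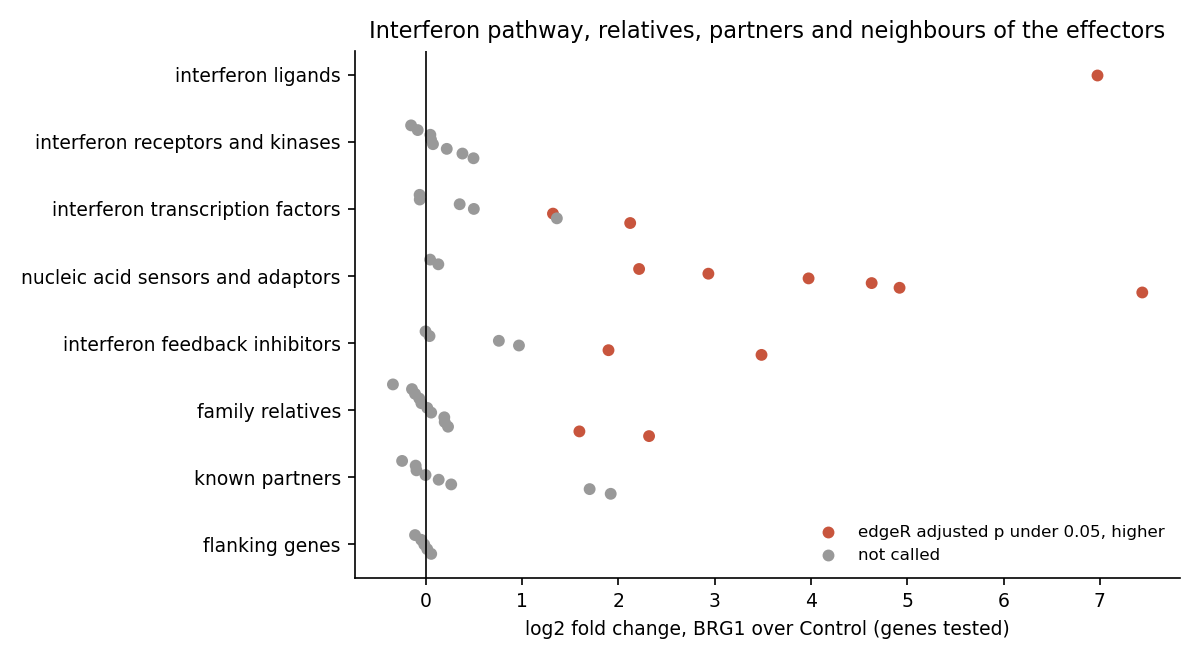
Log2 fold change of BRG1 over Control for every tested gene of the interferon pathway lists, the relatives and partners of the effectors and their flanking genes, with genes called higher by edgeR (adjusted p under 0.05) in red and the others in gray. Red points are found among the ligands, factors, sensors, inhibitors and relatives, whereas receptors, partners and flanking genes have none.

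Genes related to the effectors in sequence or name were examined as well. Of 12 relatives, all tested, 2 (16.7%) were called higher, against 9.2% of all genes tested, and 0 lower, with 1 lower at an unadjusted p under 0.05, and their median log2 fold change was 0.04. Those called were IFI35 (log2 fold change 2.32, edgeR adjusted p 0.000145) and IFI30 (log2 fold change 1.59, edgeR adjusted p 0.00520), which share the IFI prefix with the effectors but not their protein family. The sequence relatives were not called. The dynamin family genes DNM1, DNM2, DNM3, DNM1L, OPA1, MFN1 and MFN2 had log2 fold changes between -0.34 and 0.23, CMPK1 had one of 0.02, and the relatives of IFI27, IFI27L1 and IFI27L2, had ones of -0.11 and 0.06. With the sample number as a block MFN1 was called lower (edgeR adjusted p 0.0437).

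Proteins known to bind the effectors were also considered. Of 8 such genes, all tested, edgeR, DESeq2 and limma-voom called 0 higher and 0 lower, and at an unadjusted p under 0.05 edgeR had 2 higher and 0 lower. As edgeR called 9.2% of all genes tested higher, 0 of 8 partners is near that share. XIAP, the target of XAF1, had 2099 ± 111 normalised counts in Control samples and 1772 ± 362 in BRG1 samples (SD, n = 3), and FKBP5, a partner of IFI44, had 3285 ± 926 and 3277 ± 988. TRAF6, a partner of viperin that was named after its values were seen, had a log2 fold change of 1.70 with an adjusted p of 0.146 under edgeR, and was called with the sample number as a block (edgeR adjusted p 0.00945) and without BRG1 sample 3 (edgeR adjusted p 0.00604).

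The genes that flank the effectors were used to ask whether the difference extended along the chromosome. Taking the nearest protein-coding gene on each side gave 14 genes, of which 5 passed the low-count filter, and edgeR and limma-voom called 0 higher and 0 lower, with 0 in either direction at an unadjusted p under 0.05 in edgeR and a median log2 fold change of -0.02. As 9.2% of all genes tested were called higher, 0 of 5 is no result about the neighbors. IFI27 lies between IFI27L1, whose nearest edge is 989 bases away, and IFI27L2, 11.1 kb away. These had 672 ± 98.7 and 621 ± 117 normalised counts in Control samples and 623 ± 49.6 and 647 ± 108 in BRG1 samples (SD, n = 3). MVB12A begins 91 bases from BST2 and is transcribed away from it. It had 1667, 1404 and 1596 normalised counts in Control samples and 1554, 1469 and 1491 in BRG1 samples, and so differed by less than the spread between replicates (log2 fold change -0.05). FAM3B, before MX2, and TMPRSS2, which overlaps the end of MX1, were near the floor, with at most 1.48 and 8.998 normalised counts in any sample. SOX11 and FBXO39, named after their values were seen, did not pass the filter, and DESeq2 called both of them higher with log2 fold changes of 3.78 and 4.78. SOX11 lies 1139 kb before CMPK2 and had 2.56, 6.17 and 0.789 normalised counts in Control samples and 45.9, 64.9 and 11.01 in BRG1 samples. FBXO39 begins 567 bases after XAF1 and had 0, 0 and 0.888 in Control and 8.44, 9.85 and 14.0 in BRG1 samples.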

How the data were processed

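RNA-seq of 3 Control and 3 BRG1 samples of COV434 cells was analysed. Libraries were made without strand information (TruSeq mRNA v2, 500 ng of RNA) and sequenced as pairs of 78 bases on 3 lanes. The authors aligned reads with STAR (2.5.3a) to GENCODE release 24, quantified transcripts with salmon (0.8.2) and summed them to genes with tximport; their notes name hg38. The deposited table gives an estimated count for each gene symbol, which the authors derived from length-scaled TPM and the library size, so values need not be whole and reads shared by several genes are divided by a model.

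Here the estimated counts were rounded, and genes that reached 10 counts in 3 or more samples (14225 of 19899) were tested with edgeR (4.0.16, R 4.3.3), TMM factors and the robust quasi-likelihood test, in place of the study's DESeq2. Fits that left out a sample required the count in as many samples as the smaller group held. Genes with a Benjamini-Hochberg adjusted p under 0.05 over all genes tested were called. P-values compare the difference between groups with the spread between these cultures of a single cell line, which edgeR moderates across genes. The main fit did not use the sample number, so its spread includes any difference shared by same-numbered samples. Each fit was tested on simulated data, where the share of false calls was above the nominal one in every fit. It was highest with DESeq2 and next with edgeR and the block. The simulation was a single draw that used the dispersions of the edgeR fit. It held far fewer changed genes than were called here, all with the same size of change, so its shares need not hold for these data. Calls made only by DESeq2 are taken as less certain within that limit. The simulated data held no difference shared by same-numbered samples, so they cannot judge the fits with the block. Calls made only with the block are less certain because they rest on a pairing taken from these data. Totals of 29699741 to 63613710 estimated counts set the counting error, and exact intervals and the floor of 3 counts per library cover counting error only. The effectors and lists were chosen with earlier results of these data known. Gene positions and exon lengths come from GENCODE release 44. Named are all 10 effectors, SMARCA4, up to 6 called genes of each list (of more, the 3 with the lowest p), IFNB1, the lambda genes, STAT2, IRF9, IRF7, called flanking genes with the neighbors of MX2, and the 5 genes most like the effectors. A further gene of the pathway is not reported here.

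Same-numbered samples deviated from their group means together (r across 14225 genes 0.367, 0.335 and 0.484), so the numbers were taken to pair the samples, from the data and the shared numbers. The alternatives were DESeq2 (1.42.0), limma-voom (3.58.1), median-ratio size factors, no low-count filter, the sample number as a block under edgeR and DESeq2, each sample left out, an adjusted p under 0.01, the longest transcript as the length and motif windows that end at the start.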

Additional observations from a re-analysis of the deposited data

How the results depend on the processing

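The 10 effectors were called higher with DESeq2, limma-voom, median-ratio size factors, no low-count filter and the replicate block under either tool, and 9 to 10 when a sample was left out, which only describes genes chosen with this difference known. The exception was MX1, whose call was lost without Control sample 1 or 3 or BRG1 sample 1 or 2. The lowest and highest log2 fold change over the alternatives were 2.55 and 4.62 for MX1, 9.46 and 11.92 for MX2, 8.93 and 13.39 for IFI44, 6.26 and 8.74 for RSAD2, 9.03 and 10.21 for BST2, 8.18 and 9.77 for XAF1, 8.04 and 8.97 for IFI27, 9.13 and 9.95 for IFI44L, 6.20 and 6.71 for CMPK2, and 6.21 and 6.50 for IFI6. Depth limits the Control side of the folds.

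With the replicate block, which uses the pairing of sample numbers, edgeR called 1896 genes higher and 799 lower (without it 1308 and 139), and DESeq2 called 2095 and 1035. DESeq2 without the block called 294 lower, and at an adjusted p under 0.01 there were 32. When a sample was left out, the genes called lower ran from 39 (without BRG1 sample 2) to 273 (without BRG1 sample 3), with 52, 56, 59 and 67 in the others. With the block, under edgeR and DESeq2 alike, 2 receptors and kinases and 5 factors were called higher and 1 relative lower, and of the partners 1 was called by edgeR and 2 by DESeq2. Except for SOCS3, the block changed no other call among the listed genes tested by edgeR. When a sample was left out, receptors and kinases called ran from 0 to 1, feedback inhibitors from 1 to 2, partners from 0 to 1 and flanking genes from 0 to 2, the highest values for receptors, partners and flanking genes each without BRG1 sample 3. At an adjusted p under 0.01, 1 feedback inhibitor was called. Of the flanking genes, DESeq2 and the fit without a filter each called 2, and DESeq2 with the block 1. STING (TMEM173) and IKBKE, too low for the filter, were called by DESeq2 and by the fit without a filter. The fits without a filter and without a sample differ in the genes or samples they hold; the cause of the other differences was not tested.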
